A study of Mus musculus with 21 samples.

Results

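Delayed treatment with irisin was compared with MPTP alone in the midbrain of 6 mice, 3 per group, out of the 21 mice of the series, and was described over the 21922 tested genes of the 55385 listed. The members were chosen by treatment label, and no measured value was used to choose them. All mice were male C57BL/6 mice aged 6 weeks by label, and every injection was intraperitoneal. The irisin delayed treatment group received MPTP at 30 mg/kg per day for 5 days and then irisin at 200 ug/kg per day for 5 days. The MPTP group received the same MPTP course and then ddH2O, the vehicle, for 5 days, so the time since MPTP was the same in both groups. A further pair of groups of 3 mice entered the same fit: control mice given ddH2O for 10 days, and irisin treated mice given ddH2O for 5 days and then irisin for 5 days. A separate pre-treatment experiment of 9 mice, in which the same dose of irisin was given for 5 days before MPTP, was used only for side by side values.

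MPTP is a neurotoxin that brain monoamine oxidase B turns into MPP+, which the dopamine transporter carries into dopaminergic neurons, where it blocks complex I of the respiratory chain. It is used to model the loss of nigral dopaminergic neurons in Parkinson's disease. Irisin is a peptide cleaved from the membrane protein FNDC5, released by muscle during exercise, and integrins that contain the alpha V chain are known as its receptors in bone and fat. Nigral tissue was dissected by hand after perfusion, so each library is a mixture of neurons, glia, vessels and any tissue taken along with them, and fewer cells of a type cannot be told apart from less RNA per cell.

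The libraries of the 3 irisin delayed treatment mice held 51167685 to 55482546 counts and those of the 3 MPTP treated mice 57845362 to 77203445 counts. Genes of the mitochondrial genome took 7.87 to 8.68% of the counts with irisin and 7.65 to 7.80% without. Levels are given as CPM, counts scaled to the same library size with TMM factors, in the order of replicates 1, 2 and 3 ("with irisin" and "irisin replicate" mean the delayed treatment group unless irisin alone is named), and as log2 fold changes from edgeR's quasi-likelihood test with a standard error, positive when higher with irisin. Each standard error was calculated as the absolute log2 fold change divided by the square root of the F statistic of that test. Tissue from outside the nigra differed between mice of a group. The summed CPM of 15 choroid plexus and ependyma genes was 226, 1750 and 630 with irisin and 102, 142 and 1621 in MPTP treated mice. The summed CPM of 8 hypothalamic neuropeptide genes was 136, 23.8 and 12.8 with irisin and 17.0, 19.3 and 79.1 without. The control mice stood apart from the other 3 groups in a few genes: Wdfy1 was at 73.8 to 79.7 CPM in control mice and at 19.2 to 24.7 CPM in the other 9 mice, and the part of this in the differences from control mice given below was not tested.

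Few genes separated the groups over the whole table, and the changes that were shared by related genes were small. Of all tested genes 1 (0.00456%), Larp1, passed an adjusted p of 0.05, and 856 genes (3.90%) had an unadjusted p under 0.05, 451 of them higher (2.06%) and 405 lower (1.85%). The mice of both groups did not overlap in 2353 genes (10.7%), 1173 higher (5.35%) and 1180 lower (5.38%). A full separation of 3 and 3 mice corresponds to a two-sided p of 0.1 in an exact permutation test, the smallest possible. Neither the 856 nor the 2353 genes are therefore read as a number of changed genes. The median log2 fold change was -0.0002, with 49.9% of genes above 0 and 50.1% below. Apart from Larp1 and from Lpcat1, Tmem168 and Ahdc1, each adjusted p was 0.843 or more, so the genes named below by an unadjusted p are not called over the whole table.

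**Figure D1:**
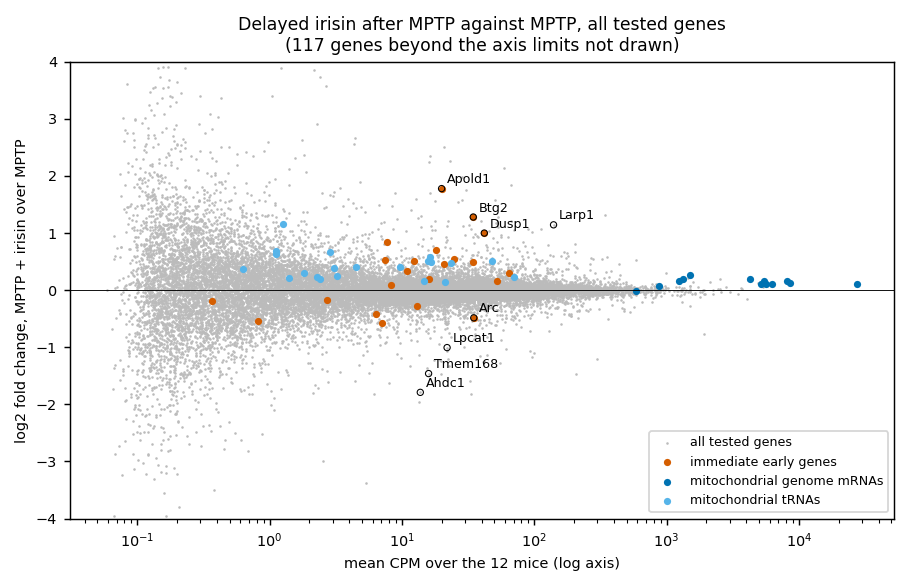
Log2 fold change of each tested gene (irisin delayed treatment over MPTP) against its mean CPM over the 12 mice of the delayed experiment on a log axis, with immediate early genes in orange, mitochondrial mRNAs in blue and mitochondrial tRNAs in light blue. The median of all genes lies at -0.0002, most orange points and all but 1 of the blue points (mt-Nd3) lie above 0, and Larp1 stands apart among genes of its level, while 117 genes beyond 4 on the log2 scale are not drawn.

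Larp1 (ENSMUSG00000037331, chromosome 11, 58009064 to 58062034) encodes an RNA binding protein that holds mRNAs of the translation machinery downstream of mTOR. It was at 172, 167 and 154 CPM with delayed irisin and at 69.6, 76.1 and 77.6 CPM in MPTP treated mice, a rise of 1.14 ± 0.07 on the log2 scale (adjusted p = 0.000105). Control mice, at 155, 153 and 163 CPM, and mice given irisin alone, at 163, 176 and 152 CPM, lay at the level of the irisin delayed treatment group, so the MPTP treated mice alone were low. In the pre-treatment experiment, mice of every group were at the low level (65.9, 60 and 45.5 CPM in control mice), while MPTP replicate 2 and irisin pre-treatment replicate 3 were at 162 and 154 CPM, so the levels of Larp1 did not follow treatment there. The other members of the family showed no such step: Larp1b had a log2 fold change of 0.11 ± 0.10, Larp4 0.01 ± 0.30 and Larp4b -0.12 ± 0.10. Of the 27 tested genes of the LARP family and the mTOR to translation axis, 2 were higher and 1 lower at an unadjusted p under 0.05 (11.1%, against 3.90% of all tested genes). Larp1 and Pabpc1, the poly(A) binding protein, were higher, and Eif4ebp2, a repressor of cap dependent translation, was lower. Pabpc1 was at 142, 164 and 175 CPM with irisin and 126, 131 and 140 CPM without (0.28 ± 0.08, unadjusted p = 0.00665). Eif4ebp2 was at 68.8, 71.8 and 65.8 CPM with irisin and 74.3, 76.7 and 79.1 CPM without (-0.16 ± 0.06, unadjusted p = 0.0253). The groups did not overlap in these 3 genes.

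Lpcat1, an acyltransferase that remodels phosphatidylcholine and makes platelet activating factor precursors, was the gene nearest to the threshold (chromosome 13, 73467197 to 73516422). It was at 15.2, 13.5 and 12.6 CPM with irisin and at 24.1, 27.6 and 31.2 CPM in MPTP treated mice, a log2 fold change of -1.01 ± 0.12 (unadjusted p = 4.65e-06, adjusted p = 0.051). Mice given irisin without MPTP were as low, at 13.9, 15.2 and 13.2 CPM, and control mice were at 28.5, 34.8 and 33.5 CPM, so Lpcat1 was low in all 6 irisin treated mice of the experiment and high in all 6 others. The irisin effects with and without MPTP differed by 0.19 on the log2 scale (adjusted p = 0.95). In the pre-treatment experiment the log2 fold change with irisin was -0.16 ± 0.27.

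Immediate early genes, which are transcribed within minutes of neuronal activity, growth factors or stress, were higher with irisin for most members that differed. Of 22 members, 7 were higher and 1 lower at an unadjusted p under 0.05 (36.4%, against 3.90% of all tested genes), and 10 were higher and 2 lower without overlap (54.5%, against 10.7%). Their median log2 fold change was 0.32. The summed CPM of the list was 389, 434 and 417 with irisin and 310, 379 and 292 in MPTP treated mice. The members that moved encode feedback regulators as well as transcription factors.

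Among the feedback regulators, Dusp1, a phosphatase that switches off MAP kinases, was at 31.6, 48.2 and 45.4 CPM with irisin and 19.5, 24 and 19.0 CPM in MPTP treated mice (1.0 ± 0.19, unadjusted p = 0.000312). Btg2, an antiproliferative cofactor of mRNA deadenylation, was at 21.8, 28.6 and 28.9 CPM with irisin and 11.1, 11.2 and 10.4 CPM without (1.28 ± 0.27, unadjusted p = 0.000529). Apold1, an early response gene of endothelial cells, was at 9.68, 15.9 and 14.0 CPM with irisin and 4.11, 4.43 and 2.98 CPM without (1.78 ± 0.37, unadjusted p = 0.000586). In each of the 3 genes the lowest irisin mouse lay above the highest MPTP mouse, and irisin replicate 1 was the lowest of its group. Sik1, a kinase that keeps CREB coactivators out of the nucleus, was at 15.4, 19.8 and 17.9 CPM with irisin and 11.5, 13.2 and 14.1 CPM without (0.46 ± 0.15, unadjusted p = 0.0129).

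Among the transcription factors, Fos was at 36.5, 40 and 37.1 CPM with irisin and 27.1, 30.3 and 23.4 CPM without (0.49 ± 0.14, unadjusted p = 0.00471). Junb was at 12.1, 18.9 and 18.3 CPM with irisin and 10.4, 12.2 and 7.71 CPM without, where irisin replicate 1 fell just inside the MPTP range (0.70 ± 0.23, unadjusted p = 0.0124). Ier2, a nuclear early response protein, was at 7.04, 9.14 and 7.37 CPM with irisin and 3.55, 4.22 and 5.30 CPM without (0.85 ± 0.21, unadjusted p = 0.00225). Fosb, Jun, Klf2 and Klf4 were higher without overlap and did not pass an unadjusted p of 0.05, with log2 fold changes of 0.53, 0.16, 0.34 and 0.51. The activity marker Arc went the other way, at 35.2, 29.6 and 30.2 CPM with irisin and 44.0, 50.7 and 38.1 CPM without (-0.48 ± 0.12, unadjusted p = 0.00159). Egr4, a transcription factor of the Egr family, was also lower without overlap (-0.54 ± 0.37). Npas4, which responds to neuronal calcium entry, had a log2 fold change of -0.41 ± 0.24, and Egr1, Egr3 and Nr4a3 had 0.30 ± 0.25, -0.57 ± 0.40 and 0.09 ± 0.17, all with overlap.

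**Figure D2:**
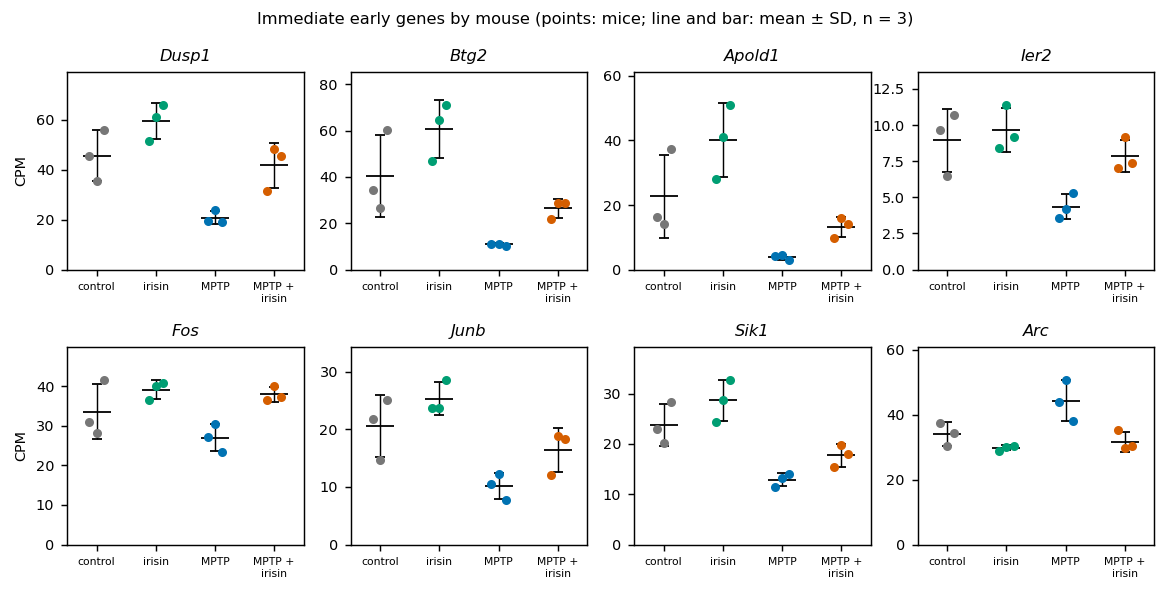
CPM of 8 immediate early genes by mouse in the 4 groups of the delayed experiment, with points for mice and a line and bar for the mean and SD of 3 mice. In the first 7 panels the MPTP treated mice have the lowest mean, for Btg2 at 10.4 to 11.2 CPM against 21.8 to 28.9 CPM with delayed irisin, and in the Arc panel they have the highest mean.

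The promoters of Dusp1 and Btg2 are shown because both genes are among those with the smallest p and both carry the palindromic cAMP response element TGACGTCA, in capitals, the site bound by CREB. The sequences are from RefSeq on GRCm38.p6 and read 5′ to 3′ on the gene's strand, the minus strand in both cases, at chr17:26508568-26508655 for Dusp1 and chr1:134079274-134079361 for Btg2. The element begins 143 bases before the RefSeq start of Dusp1 and 166 bases before that of Btg2.
Dusp1: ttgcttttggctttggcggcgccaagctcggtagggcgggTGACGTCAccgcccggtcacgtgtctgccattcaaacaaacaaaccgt
Btg2: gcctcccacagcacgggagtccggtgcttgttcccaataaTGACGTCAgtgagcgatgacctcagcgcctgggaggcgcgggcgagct
The windows searched ran from 250 bases before to 50 bases after each start, and the element reads the same on both strands. It was found in 2 of the 17 immediate early genes with a promoter in the table (11.8%) and in 549 of all 27025 genes there (2.03%). The match is a description of these letters only.

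Many of these genes were low in MPTP treated mice against control mice, a comparison that shares the MPTP treated mice. There 2 of the 22 members were higher and 10 lower at an unadjusted p under 0.05, where 8.33% of all tested genes had one (4.32% higher and 4.01% lower). Of all genes 29 (0.132%) passed an adjusted p of 0.05, among them Btg2 (-1.89, adjusted p = 0.024) and Apold1 (-2.56, adjusted p = 0.031). Dusp1 had -1.13 (adjusted p = 0.071) and Sik1 -0.88 (adjusted p = 0.081). Control mice were spread widely in these genes, from 26.5 to 60.2 CPM for Btg2 and from 14.2 to 37.5 CPM for Apold1. In mice given irisin alone against control mice 5 members were higher and 0 lower, where 8.97% of all genes had an unadjusted p under 0.05 (4.53% higher and 4.44% lower). The irisin effects with and without MPTP differed by 0.61 for Dusp1, 0.69 for Btg2 and 0.96 for Apold1 on the log2 scale, and none of these differences passed (adjusted p = 0.89, 0.91 and 0.91), while 0.0411% of all tested genes did. Zfp36, which encodes an mRNA decay factor of the same early response and was named after its values were seen, was at 11, 15 and 15.5 CPM with irisin, 6.25, 5.82 and 7.76 CPM in MPTP treated mice and 14.3 to 28.9 CPM in control mice.

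In the pre-treatment experiment, with other mice and irisin given before MPTP, most of these genes were lower with irisin. Of the 22 members, 15 were lower and 0 higher at an unadjusted p under 0.05, where 6.42% of genes tested in both experiments had one in either direction. An adjusted p of 0.05 by edgeR was passed by 7 of the members, among 16 of all 21153 genes tested in both experiments. The log2 fold change was -1.08 ± 0.26 for Dusp1, -1.26 ± 0.14 for Btg2, -3.27 ± 0.20 for Apold1 and -1.88 ± 0.22 for Fos. MPTP and not irisin was the last agent given there, and the difference between the experiments was not tested.

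Most mRNAs of the mitochondrial genome had a small positive log2 fold change with irisin, and few passed an unadjusted p of 0.05. The genome encodes core subunits of complexes I, III, IV and V, with the tRNAs that translate them. Of 13 mRNAs, 12 had a positive log2 fold change, and the median was 0.13. An unadjusted p under 0.05 was found in 2 (15.4%, against 3.90% of all tested genes). The count at an unadjusted p under 0.05 was 0 without irisin replicate 2, 1 without irisin replicate 3 or MPTP replicate 2, 4 without MPTP replicate 3, 8 without irisin replicate 1, 5 with only the compared groups in the fit and 6 without the control mice. The exception in sign was mt-Nd3, at -0.02 ± 0.10. mt-Nd6, the complex I subunit read from the opposite strand, was at 1406, 1535 and 1505 CPM with irisin and 1281, 1285 and 1134 CPM in MPTP treated mice (0.26 ± 0.10, unadjusted p = 0.0189). mt-Cytb, the complex III subunit, had 0.13 ± 0.06 (unadjusted p = 0.045) and passed under 6 of 15 alternatives. Their summed level was 70636, 79348 and 79282 CPM with irisin and 69962, 68489 and 71706 CPM without, so irisin replicate 1 lay inside the MPTP range. Control mice were at 79634 to 89587 CPM and mice given irisin alone at 72946 to 79178 CPM. Against control, 13 of 13 mRNAs were negative both in MPTP treated mice and after irisin alone. In MPTP treated mice 10 were lower at an unadjusted p under 0.05, as were 4.01% of all tested genes. After irisin alone 6 were, as were 4.44% of all tested genes. mt-Cytb passed in MPTP against control (-0.35, adjusted p = 0.047).

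Of the 22 mitochondrial tRNA genes, a list added after their values were seen, 21 were tested and 21 had a positive log2 fold change, with a median of 0.40. Of these, 9 had an unadjusted p under 0.05 (42.9%, against 3.90% of all tested genes) and 13 did not overlap (61.9%, against 10.7%). As the list was chosen by these values, the shares describe it and are no support for a direction. The list's summed level was 254, 289 and 281 CPM with irisin and 222, 228 and 188 CPM in MPTP treated mice. The sequences of 5 tRNAs with a small p are shown, in the DNA letters of GENCODE M21 on GRCm38, 5′ to 3′ on the transcribed strand, with the anticodon in capitals, to show how short these genes are, at 66 to 75 bases.
mt-Ty: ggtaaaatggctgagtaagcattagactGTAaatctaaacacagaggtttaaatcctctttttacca
mt-Tc: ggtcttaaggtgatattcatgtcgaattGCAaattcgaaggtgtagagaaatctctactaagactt
mt-Td: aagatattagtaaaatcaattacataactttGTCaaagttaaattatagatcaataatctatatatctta
mt-Ts1: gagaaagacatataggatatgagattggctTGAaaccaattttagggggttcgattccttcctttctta
mt-Tl1: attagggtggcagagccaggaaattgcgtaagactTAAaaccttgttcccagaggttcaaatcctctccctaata
mt-Ty, the tyrosine tRNA at MT 5260 to 5326 on the minus strand, was at 18.4, 17.2 and 18.5 CPM with irisin and 12.8, 12 and 11.3 CPM in MPTP treated mice (0.58 ± 0.12, unadjusted p = 0.000583). mt-Tc, the cysteine tRNA beside it at 5192 to 5257, was at 18.3, 17.3 and 17.2 CPM with irisin and 13.3, 13.9 and 10.3 CPM without (0.49 ± 0.12). mt-Td, the aspartate tRNA on the plus strand at 6942 to 7011, was at 2.84, 3.77 and 3.80 CPM with irisin and 2.31, 2.09 and 2.12 CPM without (0.67 ± 0.18). The groups were apart in each. mt-Ts1, a serine tRNA on the minus strand at 6870 to 6938, had the highest fold change of the class (1.16 ± 0.32) at levels of 0.574 to 1.95 CPM, and mt-Tl1, a leucine tRNA at 2676 to 2750, had 0.51 ± 0.15 at 28.5 to 52.1 CPM. mt-Ta and mt-Tn, which follow mt-Tc on the same strand, had 0.52 ± 0.17 and 0.48 ± 0.18. Whether the counting used strand is not given in the sources used here, so reads of a tRNA and of the transcript on the opposite strand cannot be told apart. The part of neighbouring transcripts in the counts of these short genes was not tested. The tRNA genes did not share one pattern against the control mice: mt-Ty had -0.44 and mt-Tl1 -0.68 in MPTP against control, whereas mt-Tg was at 0.331 to 0.918 CPM in control mice and 3.16 to 4.79 CPM in all other mice. With irisin before MPTP, mt-Ty had -0.37 ± 0.10 and mt-Tl1 0.10 ± 0.16.

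Subunits of the respiratory chain encoded in the nucleus did not follow those of the mitochondrial genome. Of 37 nuclear complex I subunits, 28 had a negative log2 fold change, and the median was -0.04. Without overlap, 6 were lower and 0 higher (16.2%, against 10.7% of all tested genes). Ndufc1 had an unadjusted p under 0.05, at 25.1, 32.1 and 22.6 CPM with irisin and 34.3, 33.0 and 31.8 CPM without (-0.31 ± 0.13). The direction rested on 1 mouse: without irisin replicate 1 the median was 0.01 and 20 of 37 were positive. Of 43 tested subunits of complexes II to V, 1 was higher and 0 lower at an unadjusted p under 0.05 (2.33%, against 3.90% of all tested genes). The higher gene was Atp5h of the ATP synthase stalk (0.12 ± 0.05), and the median of the list was -0.01. Cox4i1 of complex IV was at 592, 419 and 437 CPM with irisin and 430, 429 and 407 CPM without (0.19 ± 0.18).

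**Figure D3:**
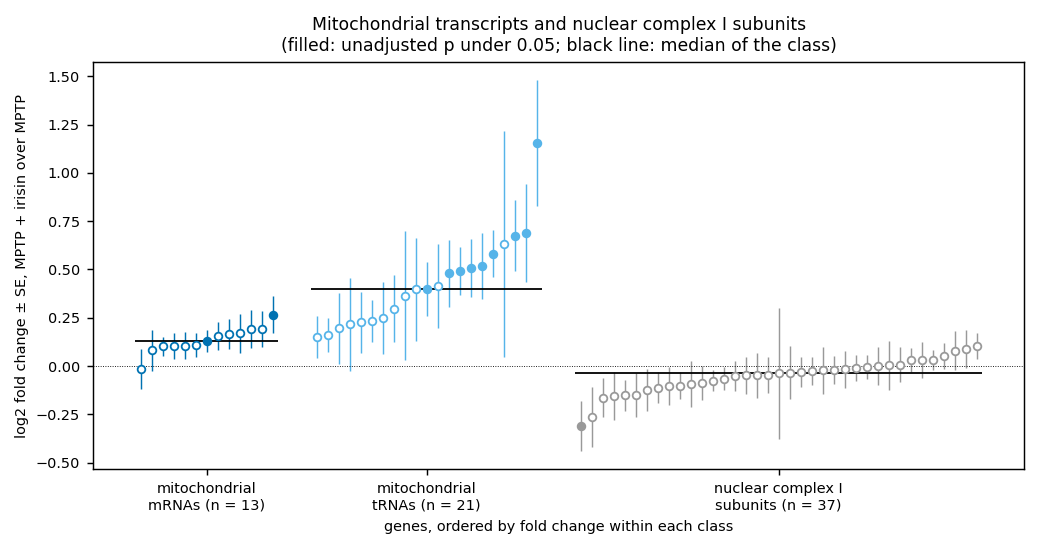
Log2 fold change with its standard error for 13 mitochondrial mRNAs, 21 mitochondrial tRNAs and 37 nuclear complex I subunits, ordered by fold change within each class, with filled points for an unadjusted p under 0.05 and a black line for the class median. The medians are 0.13, 0.40 and -0.04, and the mitochondrial tRNAs lie furthest above 0.

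Regulators of mitochondrial biogenesis and shape mostly stayed within the spread of the mice. Tfam, which packages and transcribes the mitochondrial genome, was at 43.3, 46.3 and 42.4 CPM with irisin and 39.9, 39.7 and 39.7 CPM in MPTP treated mice (0.15 ± 0.07, unadjusted p = 0.0474). Tfam passed an unadjusted p of 0.05 under 6 of 15 alternatives. Nrf1, a transcription factor of nuclear respiratory genes, was lower, at 11.2, 9.12 and 10.9 CPM with irisin and 19.2, 14.2 and 10.8 CPM without (-0.50 ± 0.18, unadjusted p = 0.0181), with overlap through MPTP replicate 3. The coactivator Ppargc1a had 0.06 ± 0.07, the deacetylase Sirt1 0.07 ± 0.15 and the import receptor Tomm20 0.03 ± 0.04. Of 16 genes of fusion, fission and mitophagy, 1 was higher and 3 lower without overlap (25.0%, against 10.7% of all tested genes). Mief2, a receptor for the fission dynamin, was the 1 member with an unadjusted p under 0.05 (-0.25 ± 0.10, unadjusted p = 0.0329). The fusion genes Mfn1, Mfn2 and Opa1 had -0.01 ± 0.06, -0.04 ± 0.05 and -0.00 ± 0.06, and the fission dynamin Dnm1l had 0.12 ± 0.12. Among other mitochondrial inner membrane genes, Immt, the core of the cristae junction complex, was at 178, 185 and 193 CPM with irisin and 117, 119 and 133 CPM without (0.59 ± 0.19, unadjusted p = 0.00874). Timm22, the channel for carrier proteins, was at 11.3, 11.4 and 12.6 CPM with irisin and 29.0, 29.1 and 25.6 CPM without (-1.25 ± 0.37, unadjusted p = 0.00597). Both genes also differed by as much between mice inside the other groups, with Immt at 118, 127 and 220 CPM after irisin alone and Timm22 at 13.1, 8.67 and 29.4 CPM in control mice.

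Dopaminergic genes marked the dissected tissue, and Th was low in both MPTP groups. Th, the rate-limiting enzyme of dopamine synthesis, was at 33.8, 34.4 and 36.1 CPM with delayed irisin and at 31.0, 31.5 and 46.0 CPM in MPTP treated mice (-0.06 ± 0.14, unadjusted p = 0.692). Control mice were at 50.9 to 63.3 CPM and mice given irisin alone at 49.4 to 56.8 CPM, so no mouse that received MPTP reached the lowest mouse that did not. Slc6a3, the dopamine transporter, was at 35.1, 24.5 and 19.2 CPM with irisin and 15.3, 24.3 and 53.5 CPM without (-0.24 ± 0.37). The MPTP treated mice were the more variable group, with replicate 3 close to the control mice at 62.9 to 67.4 CPM. Slc18a2, the vesicular monoamine transporter, had -0.28 ± 0.24, and Ddc, which converts L-DOPA to dopamine, had -0.36 ± 0.25. Of 20 dopaminergic neuron genes, 14 had a negative log2 fold change, and the median was -0.08. At an unadjusted p under 0.05, 1 was higher and 0 lower (5.0%, against 3.90% of all tested genes). This was Chrnb3, a nicotinic receptor subunit, at 11.1, 6.10 and 6.82 CPM with irisin and 4.04, 6.05 and 6.05 CPM without (0.57 ± 0.23, unadjusted p = 0.0314), whose lowest irisin mouse was barely above the highest MPTP mouse. Chrnb3 passed an unadjusted p of 0.05 under 9 of 15 alternatives. The summed CPM of the list was 808, 915 and 804 with irisin and 956, 784 and 913 in MPTP treated mice. Control mice were at 1114 to 1199. In MPTP against control 19 of the 20 genes were negative, and 11 were lower at an unadjusted p under 0.05, as were 4.01% of all tested genes. Mice given irisin alone, at 1009, 970 and 953, were also below every control mouse. In irisin alone against control 18 of 20 genes were negative, and 5 were lower at an unadjusted p under 0.05, as were 4.44% of all tested genes.

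**Figure D4:**
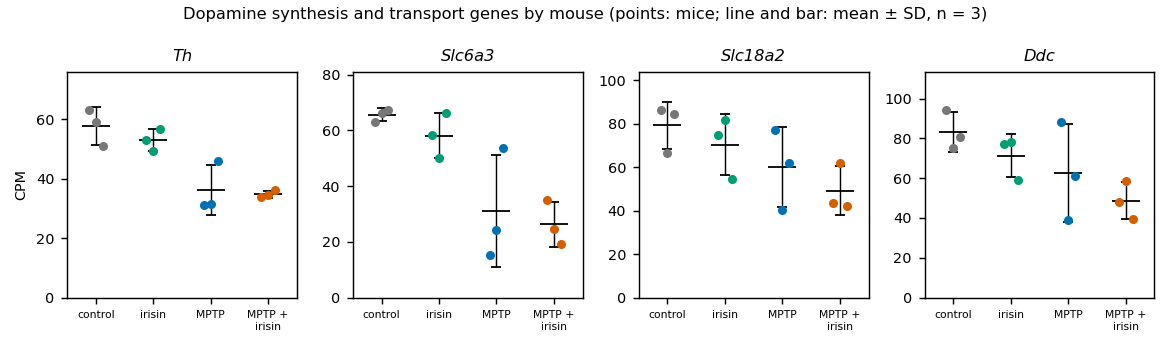
CPM of Th, Slc6a3, Slc18a2 and Ddc by mouse in the 4 groups, with points for mice and a line and bar for the mean and SD of 3 mice. In the Th panel both MPTP groups (31.0 to 46.0 CPM) lie below the control and irisin groups (49.4 to 63.3 CPM), and in all 4 panels the MPTP and the irisin delayed treatment mice overlap.

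Genes of irisin signalling, survival, oxidative stress and neurotrophic support showed few differences. Of 24 genes of irisin, integrin, Akt and ERK signalling, 2 were lower and 0 higher at an unadjusted p under 0.05 (8.33%, against 3.90% of all tested genes). Without overlap the share was 8.33%, against 10.7% of all tested genes. Pik3cb, a catalytic subunit of PI3 kinase, was at 33.8, 36.8 and 26.7 CPM with irisin and 47.6, 48.0 and 44.5 CPM without (-0.53 ± 0.20, unadjusted p = 0.024), although control mice spanned 27.7 to 47.4 CPM. Src, a tyrosine kinase of focal adhesions, was at 38.2, 33.6 and 64.5 CPM with irisin and 60.7 to 69.4 CPM without (-0.49 ± 0.19). Fndc5, the precursor of irisin, had -0.03 ± 0.06, the receptor chain Itgb5 0.00 ± 0.08, Akt1 -0.05 ± 0.05 and Mapk3 0.03 ± 0.10. Itgav, the other receptor chain, was at 62.7 to 68.6 CPM with irisin, while MPTP replicate 3 was at 19.9 CPM and control replicate 2 at 13.9 CPM, away from the 55.9 to 68.6 CPM of the other mice (0.37 ± 0.49).

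Of 21 apoptosis regulators, 1 was higher and 1 lower at an unadjusted p under 0.05 (9.52%, against 3.90% of all tested genes). Bcl2l1, which encodes the survival protein Bcl-xL, was at 111, 125 and 50.5 CPM with irisin and 46.6, 49.0 and 53.7 CPM in MPTP treated mice (0.94 ± 0.30, unadjusted p = 0.00916), so that 2 irisin mice were high and the third was at the level of MPTP. Apaf1, the scaffold of the apoptosome, had -0.29 ± 0.13 (unadjusted p = 0.0492) and passed under 5 of 14 alternatives. Bcl2 was higher without overlap, at 32.8, 29.9 and 29.4 CPM with irisin and 26.4, 27.8 and 27.6 CPM without, and did not pass (0.17 ± 0.10, unadjusted p = 0.115). Bax, which promotes cell death, had -0.08 ± 0.09. Of 26 antioxidant and oxidative DNA repair genes, 1 was lower and 0 higher (3.85%), close to the share of all genes. This was Srxn1, which repairs oxidised peroxiredoxins, at 134, 117 and 140 CPM with irisin and 164, 160 and 161 CPM without (-0.31 ± 0.12, unadjusted p = 0.0221). The repair glycosylase Ogg1 had 0.07 ± 0.18. Of 18 neurotrophic factors and receptors, 1 was higher and 1 lower (11.1%). Ntf3 was higher at 0.138 to 0.706 CPM (1.15 ± 0.44), while Bdnf had 0.12 ± 0.18.

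Of 73 tested splicing factors and neuronal RNA binding proteins, 51 had a positive and 22 a negative log2 fold change, with a median of 0.05. Without overlap, 15 were higher and 0 lower (20.5%, against 10.7% of all tested genes). At an unadjusted p under 0.05, 9 were higher and 0 lower (12.3%, against 3.90%). Leaving out 1 mouse of either group gave 4 to 6 higher genes, with 4 without MPTP replicate 2, MPTP replicate 3 or irisin replicate 3 and 5 without MPTP replicate 1, and 2, 1 and 1 lower genes without irisin replicates 1, 2 and 3. Nova1, a neuronal splicing regulator, was at 162, 165 and 162 CPM with irisin and 142, 154 and 143 CPM in MPTP treated mice (0.16 ± 0.05, unadjusted p = 0.00645). Ptbp3, a polypyrimidine tract binding protein, was at 20.7, 20 and 22.4 CPM with irisin and 16.3, 16.8 and 19.1 CPM without (0.27 ± 0.10). Hnrnpdl, a nuclear ribonucleoprotein, was at 106 to 116 CPM in MPTP treated mice and higher in every irisin mouse (0.18 ± 0.07). The groups did not overlap in these 3 genes, and none was called over the table. Nono, a paraspeckle protein of the wider mRNA processing term, was at 155, 157 and 158 CPM with irisin and 138, 140 and 142 CPM without (0.16 ± 0.04, unadjusted p = 0.00283). In that term 16 of 325 tested genes were higher and 3 lower (5.85%, against 3.90% of all tested genes). With irisin before MPTP, 3 members of the list were higher and 3 lower.

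Of 86 tested cytosolic ribosomal protein genes, 1 was higher and 3 lower (4.65%), close to the share of all genes. Rps14, a small subunit protein, was the clearest, at 140, 139 and 147 CPM with irisin and 183, 181 and 178 CPM in MPTP treated mice (-0.35 ± 0.07, unadjusted p = 0.000274). Mice given irisin alone were at 169 to 196 CPM and control mice at 157 to 178 CPM, so the irisin delayed treatment mice were the low group. Rpl3 had -0.21 ± 0.07, Rplp0 -0.15 ± 0.06 and Rplp2 0.15 ± 0.06. Ribosomal protein genes have many processed pseudogenes, and their counts may be split with them.

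A few lipid and myelin genes were lower with irisin. Of 27 genes of ether lipid synthesis and breakdown, 4 were lower and 0 higher (14.8%, against 3.90% of all tested genes). Beside Lpcat1 the lower genes were Pla2g4a, Enpp6 and Pafah2, and the median of the list was -0.09. The count of lower genes was 2 without MPTP replicate 1, MPTP replicate 3 or irisin replicate 3. Pla2g4a, the phospholipase that releases arachidonic acid, was at 6.61, 7.59 and 8.05 CPM with irisin and 10.1, 10.2 and 9 CPM without (-0.40 ± 0.11, unadjusted p = 0.00538). Enpp6, a choline phosphodiesterase of newly forming oligodendrocytes, was at 29.6, 33.2 and 27.1 CPM with irisin and 41.0, 33.2 and 36.5 CPM without (-0.30 ± 0.13). Of 15 oligodendrocyte lineage genes, 13 were negative, with Mog, a surface protein of myelin, at 191, 203 and 191 CPM with irisin and 261, 211 and 222 CPM without (-0.25 ± 0.10, unadjusted p = 0.0259) and Opalin, a myelin membrane protein, at -0.33 ± 0.14. Cspg4, a marker of oligodendrocyte precursors, went the other way (0.22 ± 0.08, unadjusted p = 0.0149). None (0) of this list was lower at an unadjusted p under 0.05 without MPTP replicate 1 or irisin replicate 3, and 1 was without irisin replicate 1. Of 22 cholesterol synthesis genes, 20 were negative with a median of -0.10, and Hsd17b7 alone passed an unadjusted p of 0.05 (-0.26 ± 0.11). This was 4.55% of the list, against 3.90% of all tested genes. In the oligodendrocyte and cholesterol lists MPTP replicate 1 was the highest mouse of both groups: its summed CPM was 13386 in the oligodendrocyte list, against 11126 and 12326 in the other MPTP treated mice and 11000 to 11710 with irisin, and 2028 in the cholesterol list, against 1805 and 1920 and 1728 to 1866 with irisin. Without MPTP replicate 1 none (0) of the cholesterol genes passed an unadjusted p of 0.05 and 7 were positive, and none (0) passed without MPTP replicate 3 or without irisin replicate 1 or 3 either, whereas 6 passed without MPTP replicate 2 and 5 without irisin replicate 2.

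Most meningeal fibroblast genes had a negative log2 fold change, and few of them or of the matrix genes passed an unadjusted p of 0.05. Of 20 meningeal fibroblast genes, 19 were negative with a median of -0.45. At an unadjusted p under 0.05, 2 were lower and 0 higher (10.0%, against 3.90% of all tested genes). These were Aldh1a2, which makes retinoic acid, and Slc6a13, a GABA and taurine transporter (-0.68 ± 0.30 and -0.66 ± 0.29). The summed CPM was 150, 293 and 363 with irisin and 342, 341 and 362 in MPTP treated mice, so irisin replicate 1 was far below the others. Without it the median was -0.16 and none (0) passed, none (0) passed without MPTP replicate 1, and 10 passed without irisin replicate 3. Of 44 collagens, 2 were lower and 0 higher at an unadjusted p under 0.05 (4.55%, against 3.90% of all tested genes). These were Col6a1 and Col6a2 (-0.51 ± 0.19 and -0.56 ± 0.22), again lowest in irisin replicate 1, at 7.97 and 7.06 CPM. Without overlap the share was 9.09%, against 10.7% of all tested genes. The collagens as a list had 31 negative members and a median of -0.13, and 32 negative members and -0.15 without irisin replicate 1. Without MPTP replicate 1 or 2 the number of lower collagens was 1, and without irisin replicate 3 it was 6. Of 16 laminin and basement membrane genes none (0) passed, although their summed level, at 365, 377 and 404 CPM with irisin and 433, 408 and 425 CPM without, did not overlap. Of 30 matricellular proteins and proteoglycans, 3 were higher and 1 lower (13.3%, against 3.90% of all tested genes). Ccn1, an early response matrix protein, was at 9.99, 10.3 and 12.7 CPM with irisin and 3.67, 3.99 and 3.23 CPM without (1.60 ± 0.44, unadjusted p = 0.00413). Tnc, tenascin C, was at 8.72, 9.28 and 26.9 CPM with irisin and 4.37, 4.96 and 4.46 CPM without (1.70 ± 0.49). Thbs1, thrombospondin 1, was at 6.52, 43.0 and 25.8 CPM with irisin and 4.52, 3.80 and 7.67 CPM without (2.24 ± 0.67). Ccn1 and Tnc did not overlap, and Thbs1 overlapped through irisin replicate 1. Abi3bp, a matrix protein of the collagen-containing matrix term, was lower (-0.86 ± 0.26).

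Markers of glia, vessels and other neurons varied little between the groups. The summed CPM of 16 microglial genes was 441 to 456 with irisin and 434 to 493 in MPTP treated mice, and Aif1 had -0.19 ± 0.18. Itgam, a complement receptor chain, was at 7.86, 7.65 and 7.74 CPM with irisin and 17.1, 18.5 and 7.28 CPM without (-0.88 ± 0.31, unadjusted p = 0.0171), with MPTP replicate 3 and control replicate 2 at the low level too. Gfap, the astrocyte filament protein, had -0.11 ± 0.15, Olig2 -0.10 ± 0.08 and the neuronal tubulin Tubb3 -0.08 ± 0.08. Of the 14 reactive astrocyte genes 2 were lower (14.3%, against 3.90% of all tested genes), Serping1 and Steap4 (-0.46 ± 0.20 and -0.77 ± 0.35). Pdgfrb alone was lower among the 18 endothelial and mural genes (-0.17 ± 0.07), 5.56% of that list. Chat, the enzyme of acetylcholine synthesis, alone was lower among the 17 genes of other neurons (-0.38 ± 0.15), 5.88% of that list. Serping1 passed an unadjusted p of 0.05 under 8 of 15 alternatives, Steap4 under 3 of 14, Pdgfrb under 7 of 15 and Chat under 11 of 15. Of 12 astrocyte, 6 serotonergic neuron and 5 erythrocyte genes none (0) passed. Of 17 tested genes of inflammation and the interferon response, 16 circadian clock genes and 14 glucocorticoid response genes none (0) passed an unadjusted p of 0.05 either, and of 15 heat shock genes 1 did, Hsp90aa1 (0.29 ± 0.12), with MPTP replicate 3 inside the irisin range.

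A few genes of neutrophils were higher, at levels near 1 CPM. Ngp, neutrophilic granule protein, was at 1.48, 1.57 and 1.27 CPM with irisin and 0.278, 0.625 and 0.585 CPM in MPTP treated mice (1.53 ± 0.34, unadjusted p = 0.000867). S100a9 and S100a8, the subunits of calprotectin, were named after their values were seen and had 1.36 ± 0.32 and 1.35 ± 0.42, also without overlap. Control mice were at 1.26, 2.62 and 1.67 CPM for S100a9, so the MPTP treated mice were the low group here too. Of a list of 12 neutrophil genes added for this, 8 were tested and 8 were positive. Erythrocyte genes, the other blood list, were at a summed 383, 870 and 414 CPM with irisin and 309, 500 and 377 CPM without, and the part of remaining blood in the neutrophil values was not tested.

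The other genes named by rank were spread over many functions. Among the higher genes, Cdh2, the neuronal cadherin, was at 93.8, 109 and 107 CPM with irisin and 78.6, 80.9 and 78.7 CPM in MPTP treated mice (0.38 ± 0.08, unadjusted p = 0.000604). Tmcc1, a membrane protein of the endoplasmic reticulum, was at 81.1, 86.4 and 80.7 CPM with irisin and 59.7, 68.2 and 66.7 CPM without (0.35 ± 0.07, unadjusted p = 0.000673). The control mice and the mice given irisin alone were all above the MPTP treated mice, at 99.2 to 128 CPM for Cdh2 and 68.7 to 81.2 CPM for Tmcc1. The pseudogenes Ube2d-ps and Rps13-ps2 were also higher (0.92 ± 0.20 and 1.2 ± 0.28), and their counts are uncertain because they share sequence with their parent genes.

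Among the lower genes, Tmem168 was at 4.73, 10.2 and 5.68 CPM with irisin and 20.9, 16.4 and 19.2 CPM in MPTP treated mice (-1.46 ± 0.23, adjusted p = 0.299), with all control and irisin mice at 17.1 to 20.5 CPM. Ahdc1, an AT-hook DNA binding protein, was at 9.25, 7.36 and 6.74 CPM with irisin and 25.2, 19.5 and 36.1 CPM without (-1.79 ± 0.28, adjusted p = 0.299), and here the MPTP treated mice were the high group. Slc1a5, a glutamine transporter, was at 3.41, 2.96 and 3.15 CPM with irisin and 5.44, 5.23 and 5.57 CPM without (-0.77 ± 0.16). Control mice lay with the irisin delayed treatment mice in Slc1a5, at 3.27 to 3.60 CPM. Adam1a had -1.21 ± 0.25, Czib -0.53 ± 0.12, Trabd -0.67 ± 0.16 and Clp1, an RNA kinase of tRNA splicing, -0.68 ± 0.17, each without overlap.

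Among the genes chosen by their large fold, Nras and Ablim1 also jumped between mice of other groups. Nras was at 48.2, 42.7 and 39.1 CPM with irisin and 10.7, 8 and 8.45 CPM in MPTP treated mice (2.26 ± 0.78, unadjusted p = 0.0147). Control mice were at 7.33, 7.56 and 44.3 CPM and irisin mice at 8.50, 7.45 and 43.2 CPM, so the same high and low levels occurred within those groups. Ablim1, an actin binding protein, was at 135, 115 and 141 CPM with irisin and 26.5, 29.4 and 53.2 CPM without (1.84 ± 0.60), with 1 mouse given irisin alone at 142 CPM. Fbxo34 (2.34 ± 0.74), Ccl28 (3.57 ± 0.95) and Tceanc (1.85 ± 0.51) were the other higher genes chosen by fold, and Zc3h11a (-4.40 ± 1.31), Kcnh3 (-1.80 ± 0.58) and Oaz1-ps (-1.61 ± 0.45) the other lower ones. Over the 12 mice, 586 of the 16083 genes with a mean of at least 1 CPM lay on 2 levels separated by a gap of at least 0.5 on the log2 scale, and 45 of the 637 such genes with an unadjusted p under 0.05. Larp1 and Lpcat1 are among these genes, with 3 mice at the low level of Larp1 and 6 at that of Lpcat1, and in both the levels followed the groups. In Cx3cr1, a microglial receptor, they did not: irisin replicate 1, MPTP replicate 3 and irisin alone replicate 3 were at 32.1, 33.9 and 35.0 CPM and the other 9 mice at 3.32 to 6.19 CPM.

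**Figure D5:**
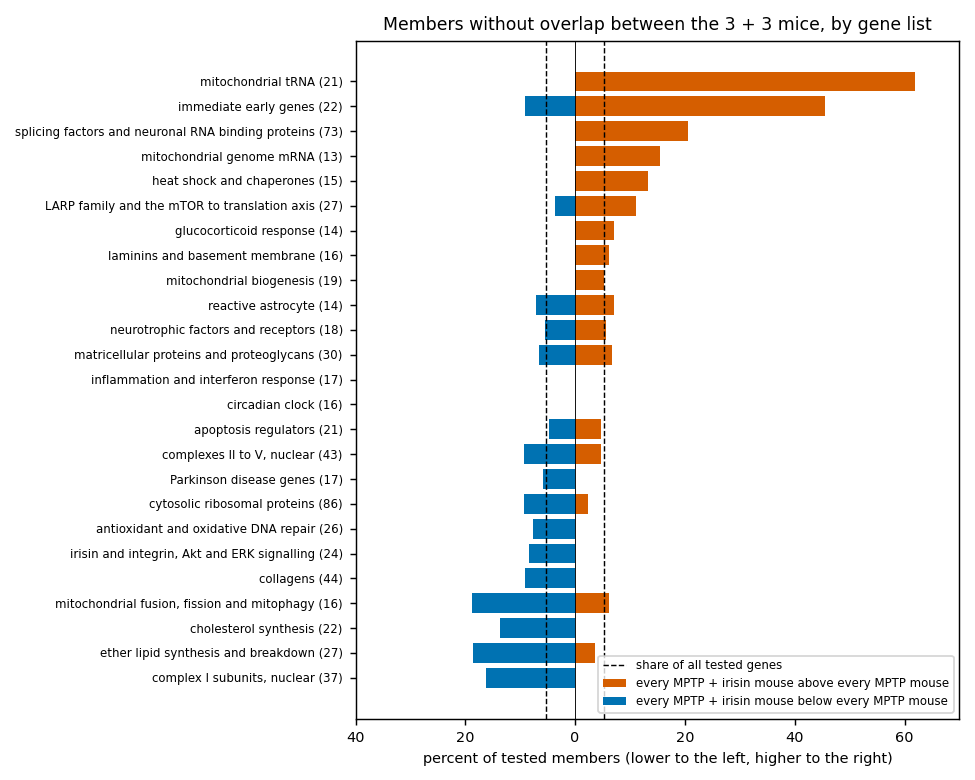
Percent of the tested members of each pathway list with at least 12 of them whose 3 irisin delayed treatment mice all lay above (right, orange) or all below (left, blue) the 3 MPTP treated mice, with the number of tested members in parentheses and dashed lines at the share of all tested genes (5.35% higher, 5.38% lower). Mitochondrial tRNAs and immediate early genes extend furthest to the right. Complex I subunits, ether lipid genes, collagens, cholesterol synthesis genes and cytosolic ribosomal proteins are among the lists with most of their bars on the left.

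Of 17 Parkinson disease genes and 9 genes of MPTP conversion and dopamine breakdown, none (0) had an unadjusted p under 0.05, with medians of -0.02 and -0.02. Among the deposited terms, focal adhesion had 4 of 183 tested genes higher and 7 lower (6.01%), and oxidative phosphorylation 4 of 109 higher and 1 lower (4.59%). Mitochondrial inner membrane had 8 of 376 higher and 9 lower (4.52%), and lipid metabolic process 3 of 458 higher and 15 lower (3.93%). The share of all tested genes was 3.90%. The largest shares among these terms were found in ether lipid metabolism, with 7 of 38 lower and 1 higher (21.1%), and in collagen-containing extracellular matrix, with 13 of 239 lower and 6 higher (7.95%). Without overlap the shares of these terms were 31.6% and 10.5%, against 10.7% of all tested genes. The lists were chosen for this tissue and treatment with earlier results of these data known, so their counts describe these mice and are not independent support for a direction.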

How the data were processed

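RNA-seq of nigral tissue was done for 3 mice per group, and the 12 mice of the delayed experiment were analysed in 1 fit. The paper names featureCounts for the read counts per gene. The deposited table holds raw counts and FPKM values, which scale counts to gene length and library size. The submitters' processing notes name HISAT, StringTie, edgeR and the build mm9, whereas 87.8% of tested genes have exactly the coordinates of GENCODE M21, which is on GRCm38. Versions and strand use are not given in the sources used here, and which named program made the deposited counts and FPKM values is uncertain.

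Genes were kept by filterByExpr (count minimum 10, total minimum 15) and scaled by TMM, and groups were compared with the quasi-likelihood test of edgeR 4.0.16 in R 4.3.3, two-sided, with Benjamini-Hochberg adjustment over all tested genes and a threshold of 0.05. The scripts were tested on simulated counts. Alternatives used limma 3.58.1 on log2(FPKM + 1) or log2(FPKM + 0.1) and DESeq2 1.42.0. An exact permutation test of 3 against 3 mice cannot go below p = 0.1, so none was run. Replicates are separate mice by label, and every pair within a group differed by more than sampling noise (chi-square per gene 37.5 or more).

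Named genes were those with an adjusted p under 0.05, then, among genes with a mean of at least 1 CPM, no overlap and an assigned symbol, the 10 with the smallest p and the 5 with the largest fold in each direction, the 3 smallest p of each list, and a set of markers. Members and lists were chosen with earlier results of these data known, and the 2 lists of mitochondrial tRNAs and neutrophil genes were added after their values were seen. No set test was run. A few genes that this rule names are not reported here.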

Additional observations from a re-analysis of the deposited data

Results flagged for a closer look

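In 9 genes the irisin effect with MPTP differed from the irisin effect without MPTP by edgeR's interaction test at an adjusted p under 0.05 (0.0411% of tested genes). For Larp1 the difference was 1.09 on the log2 scale (adjusted p = 0.00198), with the MPTP treated mice alone at the low level. For 7 of the others the 3 control mice alone stood apart while the other 9 mice lay together, and their log2 fold changes with delayed irisin were between -0.12 and 0.26. These were Gm15446 (-4.35, adjusted p = 0.000312), Wdfy1 (1.72, adjusted p = 0.000312), Gm10591 (-10.1, adjusted p = 0.00237), Gm10599 (-8.71, adjusted p = 0.0032), Crb1 (-2.82, adjusted p = 0.0106), Gm17081 (-6.74, adjusted p = 0.0236) and Gm13301 (-5.44, adjusted p = 0.0262). Gm10591 had no count in the control mice, so its fitted value is no bound. The photoreceptor polarity gene Crb1 was at 0.385 to 0.689 CPM in control mice and 3.08 to 4.70 CPM elsewhere, and its log2 fold change with delayed irisin was 0.07 ± 0.22. Gm20632 (1.81, adjusted p = 0.0291) was low in the mice given irisin alone, at 2.38 to 3.58 CPM, and at 7.78 to 11.1 CPM in the other mice.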

How the results depend on the processing

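Larp1 was higher at an adjusted p under 0.05 under all 15 alternatives, with log2 fold changes from 1.06 to 1.19. The number of genes at an adjusted p under 0.05 was 1, and it was 2 without a filter on low counts, 9 with only the compared groups in the fit, 32 with DESeq2 and 2 without the control mice, the last an alternative chosen after seeing the data. Leaving out 1 mouse gave 1 to 7 such genes, with 7 without irisin delayed treatment replicate 2 or 3, 3 without MPTP replicate 1 and 2 without MPTP replicate 2. The 856 genes at an unadjusted p under 0.05 became 558 among the 13682 genes with a mean of at least 1 FPKM, and 749 to 1093 when 1 mouse was left out. The irisin effects with and without MPTP differed in 9 genes, in 3 by limma on log2(FPKM + 1) and in 62 by DESeq2, and leaving out 1 mouse gave 7 to 19, with 19 without irisin alone replicate 1. Of 78 named genes at an unadjusted p under 0.05, 56 passed under every alternative that kept all 6 mice and tested them, 41 also whichever mouse was left out, and none (0) changed sign, where 12 of the genes were below the minimum of 1 FPKM and so not tested under that alternative. Lpcat1 passed an adjusted p of 0.05 without the filter, with DESeq2 and without MPTP replicate 1. RLE scaling moved the median of all genes to 0.0018 and turned no list named here. Without MPTP replicate 2 the immediate early genes had 11 higher members, and without MPTP replicate 3 they had 6. The median of the dopaminergic list was 0.01 without MPTP replicate 3. Same-numbered mice are different animals and did not deviate together (correlations of -0.072, -0.077 and -0.003). With the replicate block 1 gene passed in the main comparison and 7 differences between the irisin effects. Genes near 1 CPM rest on few counts, and how far depth limits them was not tested. The causes of these shifts were not tested.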
